A study of Arabidopsis thaliana with 6 samples.

Results

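The mitochondrial genome of Arabidopsis thaliana carries a small set of protein-coding genes, and 38 IDs of such genes with a known product were followed here through the small RNAs of pollen. The IDs were placed by product into 7 groups: respiratory complexes I, III and IV, ATP synthase, cytochrome c maturation, ribosomal proteins, and the pair matR and mttB. Of the 38 IDs, 36 had a feature of their own in the count tables, and ATMG00080 and ATMG00990 occurred only in segments shared with overlapping genes (ATMG00080,ATMG00090 and ATMG00990,ATMG01000,ATMG01010). The set therefore comprised 38 features in 55 segments, out of 137 mitochondrial features and 60936 features in all.

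The study compared pollen of accession Col carrying paps1-3, a mutant allele of the nuclear poly(A) polymerase gene PAPS1, with wild-type (WT) pollen. Each genotype had 3 libraries, paps1-3 libraries 16, 20 and 26 and WT libraries 15, 19 and 25. Each isolation split 1 pollen sample by sorting into a mutant and a WT fraction, and total RNA of whole grains was taken, so genotype and sort gate cannot be told apart. The labels do not state whether the 3 isolations used different plants, and p-values therefore cover only library-to-library spread, which may be technical.

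As background, plant mitochondria keep genes for core subunits of the respiratory chain and of ATP synthase, while most other subunits are imported as products of nuclear genes. Several mitochondrial genes are split, and their pieces are joined by trans-splicing after transcription. RefSeq annotates 33 protein-coding sequences in the mitochondrial genome, fewer than the IDs followed here, and a split gene can be spread over several IDs. Where genes of the set are named or counted below, they are therefore IDs and need not be separate genes. Short RNAs of plant organelles are known to include breakdown pieces of transcripts and stretches shielded by RNA-binding proteins.

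Counted reads of 18 to 28 nt numbered 5562287 to 9922763 in paps1-3 libraries and 9312167 to 10139424 in WT libraries. PAPS1 itself had 0, 0 and 1 reads in paps1-3 and 7, 4 and 4 in WT. Vegetative-cell marker genes summed to 903 to 1390 reads per 1000000 counted reads (RPM) in paps1-3 and 1428 to 1700 in WT, and sperm-cell genes to 7.58 to 8.97 RPM in paps1-3 and 14.4 to 14.6 in WT. Leaf photosynthesis genes summed to 2.02 to 5.74 RPM in paps1-3 and 8.88 to 10.8 in WT, and tapetum genes to 0.253 to 0.907 in paps1-3 and 1.74 to 1.83 in WT. Of these marker genes 1, the sperm gene AT5G49150, had no read. These marker sums moved with genotype, and their part in the results was not tested. The sum of all nuclear protein-coding genes was also lower in paps1-3, at 66134 ± 9264 RPM against 92707 ± 4281 in WT (SD, n = 3 each). The first principal component, with 59.1% of the variance, separated the genotypes, and the second, with 19.5%, set paps1-3 16 and WT 15 apart from the other libraries.

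Most reads of the set came from a single feature with a nuclear twin. ATMG00270, a complex I gene, had 876880 reads over the 6 libraries, and AT2G07731, annotated in RefSeq as a pseudogene of NADH dehydrogenase 6, had 878378. In TAIR10.1, AT2G07731 is a gene model of 874 bases on the minus strand at chr2:3467198-3468071, inside the insertion of mitochondrial DNA in nuclear chromosome 2. All 874 bases recur without a mismatch in the RefSeq mitochondrial genome, where they include the whole nad6 reading frame of 618 bases. The first 150 bases of that frame are printed as the nuclear copy has them (chr2:3467734-3467883, minus strand), because no read in this stretch can be assigned to either genome. Capitals mark the ATG that opens the frame, which begins after 188 bases of the gene model. The count tables give no position of a read within a segment.
AT2G07731: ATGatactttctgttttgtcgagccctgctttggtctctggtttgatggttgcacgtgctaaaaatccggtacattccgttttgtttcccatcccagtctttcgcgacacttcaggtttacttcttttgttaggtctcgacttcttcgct

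ATMG00270 had 42348, 61783 and 68614 reads in paps1-3, against 241005, 261157 and 201973 in WT. In RPM that was 7791 ± 2977 in paps1-3 and 24074 ± 2551 in WT (SD, n = 3 each), and the groups did not overlap. Its share of all reads of the set was 74.4% ± 5.32 in paps1-3 and 86.5% ± 1.55 in WT. ATMG00160, of complex IV, held a further 8.27% ± 1.54 in paps1-3 and 4.72% ± 2.30 in WT. ATMG00570, of the pair matR and mttB, held 5.64% ± 1.18 in paps1-3 and 6.24% ± 3.13 in WT. These are shares of reads and not of transcripts, since the tables give no feature lengths.

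The sum of the whole set therefore followed these genes. It was 7400, 13815 and 9823 RPM in paps1-3, against 27650, 30320 and 25422 RPM in WT. The groups did not overlap, with means of 10346 ± 3239 RPM in paps1-3 and 27797 ± 2452 in WT, a ratio of 0.372 (exact two-sided permutation p = 0.1, n = 3 each, the smallest p that 3 against 3 allows). The size of this fall depended on the scaling. As a log2 ratio it was −1.43 in RPM, −0.64 per nuclear reads (structural RNAs left out) and −0.66 per TMM-scaled reads (exact p = 0.1 each). In RPM without ATMG00270 alone, the sum stayed lower in paps1-3. It was then 2555 ± 449 RPM in paps1-3 and 3723 ± 163 RPM in WT, a ratio of 0.686 with no overlap (exact p = 0.1). In RPM without ATMG00270, ATMG00160 and ATMG00570, the direction turned. The rest of the set then had 899.8, 1181 and 1423 RPM in paps1-3 and 542.5, 728.5 and 812.5 RPM in WT, a ratio of 1.68 with no overlap (exact p = 0.1). Removing ATMG00270, ATMG00160 and ATMG00570 together was a step chosen after their values were seen. The mitochondrial features outside the set summed to 145439 ± 23844 RPM in paps1-3 and 21736 ± 7302 RPM in WT, so the lower sum was not shared by the rest of the mitochondrial reads. In whole grains, a change in the number of mitochondria and a change in RNA per mitochondrion cannot be told apart.

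**Figure D1:**
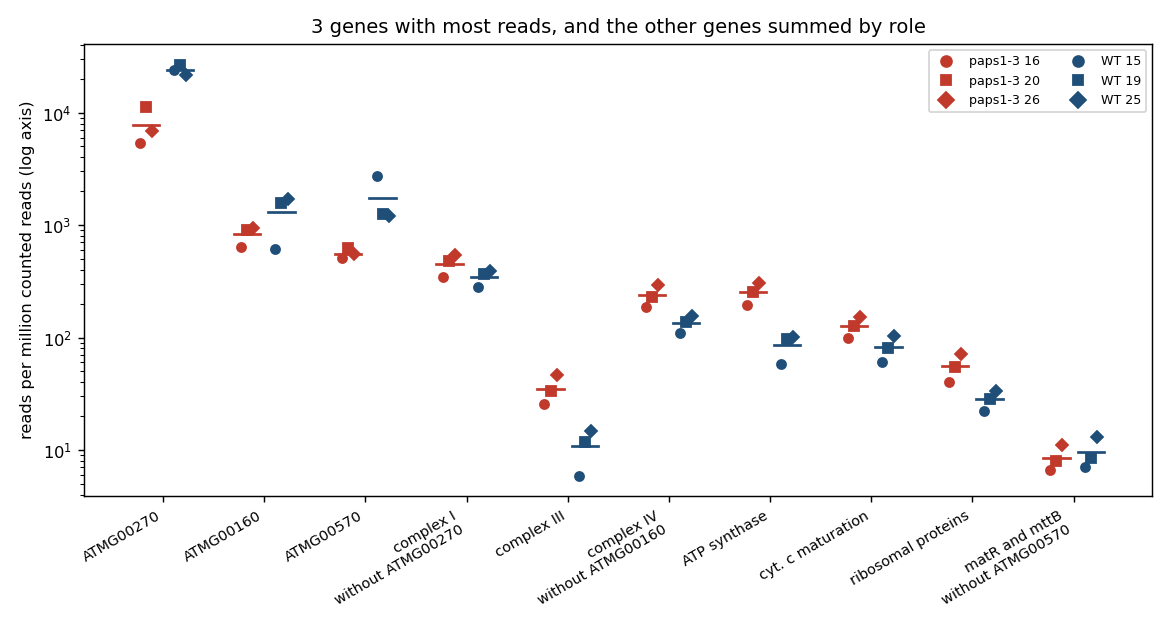
RPM on a log axis, for the 3 genes with most reads and for the other genes summed by group. Points are libraries and horizontal lines group means. ATMG00270 lay at 7791 ± 2977 in paps1-3 and 24074 ± 2551 in WT, while ATP synthase lay at 252 ± 57.4 in paps1-3 and 85.4 ± 23.5 in WT.

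Gene by gene, most of the set rose in paps1-3. Counts were tested with edgeR's quasi-likelihood test after TMM scaling, which sets the libraries level on the bulk of their features, and Benjamini-Hochberg adjustment over all 13464 features tested. Of the set, 35 features passed the filter on low counts. In paps1-3, 27 of them were higher at an adjusted p under 0.05 (14.3% of all features tested were higher), 0 were lower (4% of all features tested) and 8 were not called. At an unadjusted p under 0.05, edgeR had 1 lower, ATMG00270. After adjustment DESeq2 called 28 of the set higher (13.6% of all features) and 1 lower (2.12%), again ATMG00270. The median log2 fold change (paps1-3 over WT) was 1.97 in the set and −0.15 over all features. The CPM values of 29 of the 35 lay higher in every paps1-3 library than in any WT library (19.8% of all features tested). Features not tested were ATMG00665 with 1, 2 and 8 reads in paps1-3 and 0, 1 and 3 in WT, the ATMG00090 segments outside the overlap, and ATMG01270.

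The scaling moved these values as a block. TMM factors were 0.550 to 0.896 in paps1-3 and 1.12 to 1.52 in WT. With libraries scaled to total counted reads, 19 of the 35 were higher (6.02% of all features) and 2 were lower (40.3% of all features), and the median was 1.17 in the set against −0.94 over all features. All 19 were among the 27. Scaled to reads of miRNA loci, 30 were higher (21.9% of all features), with medians of 2.35 and 0.23. The distance between both medians was 2.12, 2.11 and 2.13 under TMM, total reads and miRNA loci.

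**Figure D2:**
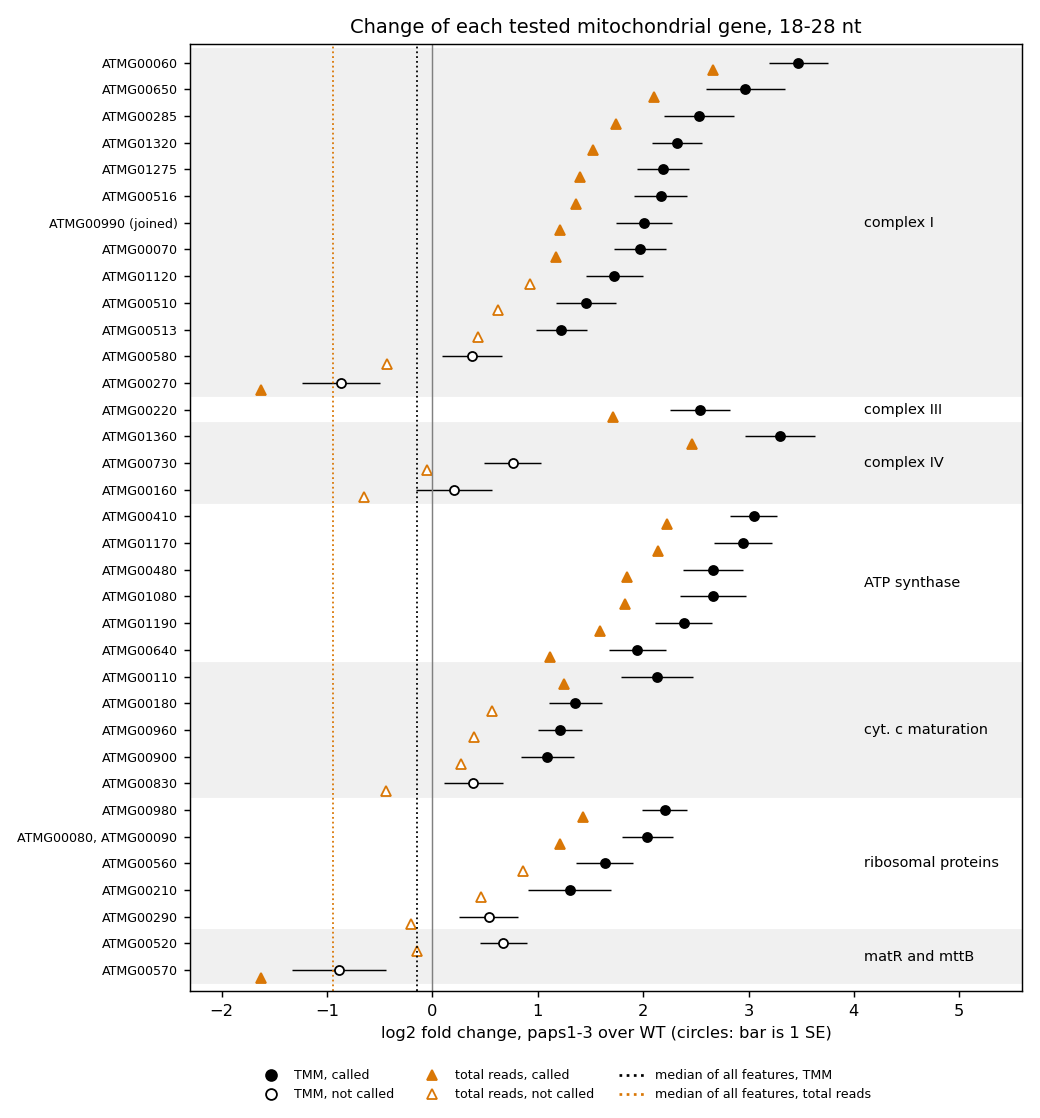
Log2 fold change of each of the 35 tested features, paps1-3 over WT, by group. Circles with bars of 1 SE are TMM values and triangles total-read values, filled where called at an adjusted p under 0.05; dotted lines are medians of all features. The 6 ATP synthase genes were called under both scalings, and ATMG00270 and ATMG00570 lay left of 0 under both.

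Complex I, NADH dehydrogenase, takes up electrons from NADH at the head of the respiratory chain. Of its 13 tested features 11 rose, with a median log2 fold change of 2.01, and under total-read scaling 8 rose and 1 fell, with a median of 1.21. The largest change of the set was that of ATMG00060. It had 39.1, 34.0 and 48.8 CPM in paps1-3 libraries, against 2.56, 3.81 and 4.53 CPM in WT libraries (log2 3.47, SE 0.28, edgeR adjusted p = 1.87e-05). All 3 paps1-3 values lay far above the WT values, and both of its segments rose, by 3.72 and 3.27. The next were ATMG00650 at 2.97, ATMG00285 at 2.53 and ATMG01320, annotated through its nuclear copy as NADH dehydrogenase 2B, at 2.32.

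The features of complex I that did not rise were ATMG00270 and ATMG00580. ATMG00270 had 9729, 12728 and 7718 CPM in paps1-3, against 21286, 19492 and 14297 CPM in WT (log2 −0.87, SE 0.37, edgeR adjusted p = 0.134). Each paps1-3 library lay below each WT library. With total-read scaling it was lower (log2 −1.63, edgeR adjusted p = 0.00125), and so it was under TMM with the isolation as a block (log2 −0.88, edgeR adjusted p = 0.0102). ATMG00580 had 223, 200 and 174 CPM in paps1-3 and 158, 157 and 144 CPM in WT (log2 0.37, SE 0.28, edgeR adjusted p = 0.396), values that did not overlap but were close. The nuclear AT2G07717, annotated as a pseudogene of NADH dehydrogenase subunit 4, had 8120 reads and ATMG00580 had 9415. This pair fell outside the limits set for a nuclear twin (given below), with a chi-square per degree of freedom of 2.51.

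Segments of one gene could differ. ATMG00580 has 4 segments, of which segments 1 and 3 rose, by 1.45 and 1.24, while segments 2 and 4, with most of its reads, changed by 0.19 and 0.57 and were not called. In ATMG00510, with 5 segments, the first changed by 0.19 and was not called, and the other 4 rose, by 1.39 to 3.10. ATMG01320 rose in all 3 of its segments, by 4.0, 2.34 and 1.41. Over the set, 48 of the 55 segments were tested, of which 38 were higher (14.5% of all segments) and 0 lower in edgeR (4.64%), with 1 lower at an unadjusted p under 0.05. Differences between segments were not tested.

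Complex III, the cytochrome bc1 complex, has 1 gene in the set, ATMG00220, which encodes apocytochrome b. It had 46.4, 38.5 and 51.7 CPM in paps1-3, against 5.30, 8.51 and 9.63 CPM in WT, with no overlap (log2 2.54, SE 0.28, edgeR adjusted p = 7.91e-05).

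Complex IV, cytochrome c oxidase, passes electrons to oxygen, and its 3 genes went apart. ATMG01360 had 181, 133 and 194 CPM in paps1-3, against 12.5, 18.7 and 20.3 CPM in WT (log2 3.30, SE 0.33, edgeR adjusted p = 4.35e-05), the second-largest change of the set. ATMG00160 had 1172, 1039 and 1046 CPM in paps1-3 and 553.7, 1138 and 1134 in WT (log2 0.20, SE 0.36, edgeR adjusted p = 0.741). The ATMG00160 groups overlapped, with WT 15 alone far below the rest. Nearly all of its reads fell on its second segment, which changed by 0.21 and was not called. The first segment, with 38, 31 and 108 reads in paps1-3 and 5, 12 and 22 in WT, rose by 3.22 (SE 0.39, edgeR adjusted p = 0.000121). ATMG00730, cytochrome c oxidase subunit 3, had 161, 128 and 136 CPM in paps1-3 and 86.6, 81.3 and 82.3 in WT (log2 0.76, SE 0.27, edgeR adjusted p = 0.0749). Its values did not overlap, and with the isolation as a block it was higher (log2 0.76, edgeR adjusted p = 0.00284). Without WT 15, an edgeR fit also called it (log2 0.95, adjusted p = 0.0157).

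ATP synthase makes ATP from the proton gradient, and all 6 of its genes rose under both TMM and total-read scaling. The median change was 2.66 with TMM and 1.84 with total reads. ATMG00410, subunit 6, changed most, with 29.6, 25.1 and 24.9 CPM in paps1-3 and 2.65, 3.28 and 3.61 in WT (log2 3.05, SE 0.22, edgeR adjusted p = 1.55e-05). ATMG00640 changed least and had the highest CPM of the group, with 110, 92.3 and 95.4 CPM in paps1-3 and 22.3, 27.2 and 27.7 in WT (log2 1.94, SE 0.27, edgeR adjusted p = 0.000333). Neither gene's groups overlapped. The others were ATMG01170 at 2.95, ATMG00480 (subunit 8) at 2.67, ATMG01080 (subunit 9) at 2.66 and ATMG01190 (subunit 1) at 2.39. ATMG01170 matched the same nuclear gene by counts as ATMG00410 (given below), so both may share reads and are not independent members. Summed, the 6 had 193, 255 and 308 RPM in paps1-3 and 58.3, 97.9 and 100.1 RPM in WT, a ratio of 2.95 (exact p = 0.1, adjusted to 0.14 over the 7 groups).

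Cytochrome c maturation attaches haem to c-type cytochromes, and 4 of its 5 genes rose under TMM but 1 under total reads. ATMG00110 rose most, with 59.5, 35.2 and 51.5 CPM in paps1-3 and 6.27, 11.2 and 15.8 in WT (log2 2.13, SE 0.34, edgeR adjusted p = 0.00102), and it was the gene called under both scalings. ATMG00180, annotated as cytochrome C biogenesis 452, had 78.8, 67.2 and 79.0 CPM in paps1-3 and 31.7, 27.5 and 28.6 in WT (log2 1.36, SE 0.25, edgeR adjusted p = 0.00264). Neither gene's groups overlapped in CPM. ATMG00830 was not called, with 5.51, 2.88 and 4.05 CPM in paps1-3 and 3.18, 3.21 and 3.04 in WT, and its groups overlapped (log2 0.39, SE 0.28, edgeR adjusted p = 0.372).

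The ribosomal proteins belong to the mitochondrion's own translation machinery, and 4 of 5 tested features rose under TMM, 2 under total reads. ATMG00980, annotated in the S12/S23 family, had 20.4, 23.7 and 26.1 CPM in paps1-3 and 4.24, 5.45 and 5.52 in WT (log2 2.21, SE 0.21, edgeR adjusted p = 3.91e-05). The overlap of ATMG00080 and ATMG00090 had 36.1, 26.2 and 36.7 CPM in paps1-3 and 6.80, 7.69 and 9.56 in WT (log2 2.04, SE 0.24, edgeR adjusted p = 0.000129). Both were higher in every paps1-3 library. ATMG00210, ribosomal protein L5, rose by 1.3 (edgeR adjusted p = 0.038) and lost its call without paps1-3 16, paps1-3 26 or WT 19, and without both paps1-3 16 and WT 15. ATMG00290, ribosomal protein S4, had 5.05, 6.18 and 5.40 CPM in paps1-3 and 5.30, 3.21 and 3.04 in WT (log2 0.53, SE 0.28, edgeR adjusted p = 0.211). Its groups overlapped through WT 15, and without that library an edgeR fit called it higher (log2 0.99, adjusted p = 0.0165).

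Neither gene of the last pair was called. ATMG00520, with 481 reads, had a nuclear twin by counts in AT2G07712, with 421, which RefSeq annotates as a pseudogene of an intron maturase, a protein that helps splice group II introns. It had 12.2, 9.06 and 12.3 CPM in paps1-3 and 6.36, 6.12 and 8.57 in WT, without overlap (log2 0.67, SE 0.22, edgeR adjusted p = 0.0564), and was higher with the isolation as a block (log2 0.66, edgeR adjusted p = 0.0145). It was also called without paps1-3 20, WT 15 or WT 25 (log2 0.85, 0.77 and 0.87). AT2G07712 was called higher in the fit in which ATMG00520 was not (log2 0.95, edgeR adjusted p = 0.0104). ATMG00570 had 921, 709 and 612 CPM in paps1-3, against 2436, 921 and 791 in WT (log2 −0.89, SE 0.45, edgeR adjusted p = 0.199). WT 15 stood far above the other 5 libraries, and without it the log2 fold change was −0.04. ATMG00570 was lower with total-read scaling (log2 −1.63, edgeR adjusted p = 0.00204) and with the isolation as a block (log2 −0.71, edgeR adjusted p = 0.0312).

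The make-up of the set shifted between groups. Complex I held 78.9% ± 4.32 of the set's reads in paps1-3 and 87.8% ± 1.48 in WT, and complex IV 10.7% ± 2.22 in paps1-3 and 5.21% ± 2.40 in WT. ATP synthase held 2.53% ± 0.646 in paps1-3 and 0.309% ± 0.0922 in WT. Cytochrome c maturation held 1.27% ± 0.322 in paps1-3 and 0.297% ± 0.0986 in WT. Ribosomal proteins held 0.559% ± 0.168 in paps1-3 and 0.102% ± 0.0272 in WT, and complex III 0.353% ± 0.115 in paps1-3 and 0.0391% ± 0.0180 in WT. None of these 6 shares overlapped between the genotypes (exact p = 0.1 each, adjusted to 0.117 over the 7 groups). These shares depend on the genes with most reads. Leaving out ATMG00270 alone, complex I held 17.7% ± 0.824 of the rest in paps1-3 and 9.30% ± 1.85 in WT, the opposite direction. Complex IV then held 41.6% ± 0.929 in paps1-3 and 39.0% ± 17.5 in WT, with overlap (exact p = 1). Leaving out ATMG00270, ATMG00160 and ATMG00570, complex I held 38.9% ± 1.25 of the rest in paps1-3 and 49.8% ± 1.55 in WT, and ATP synthase 21.6% ± 0.0888 in paps1-3 and 12.2% ± 1.35 in WT, neither with overlap.

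Split by read length, each length class was scaled and tested on its own. At 18 to 20 nt, 23 of 30 tested features of the set were higher in paps1-3 (18.8% of all features) and 1 was lower (6.9%). At 21 to 22 nt, 21 of 28 were higher (11.4%) and 1 lower (3.23%). At 23 to 24 nt, 23 of 31 were higher (15.7%) and 0 lower (6.08%), and at 25 to 28 nt 20 of 29 were higher (24.2%) and 2 lower (17.4%). The 0 lower at 23 to 24 nt in edgeR stood beside 2 at an unadjusted p under 0.05, 0 with DESeq2 and 2 with the isolation as a block. Set medians were 1.89, 1.83, 1.86 and 1.52 from the shortest to the longest class, against −0.13, −0.19, −0.13 and 0.01 for all features. With each class scaled to its total reads, 17 were higher (8.38%) and 2 lower (40.1%) at 18 to 20 nt, and 14 higher (6.56%) and 2 lower (17.1%) at 21 to 22 nt. Under that scaling 17 were higher (7.13%) and 2 lower (59.1%) at 23 to 24 nt, and 19 higher (18.5%) and 2 lower (25.3%) at 25 to 28 nt.

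Under TMM the lower calls were again ATMG00270 and ATMG00570. ATMG00270 was lower at 18 to 20 nt (log2 −1.38, SE 0.37, edgeR adjusted p = 0.025), 21 to 22 nt (log2 −1.12, SE 0.34, edgeR adjusted p = 0.041) and 25 to 28 nt (log2 −1.11, SE 0.28, edgeR adjusted p = 0.0108). At 23 to 24 nt it was not called (log2 −0.71, edgeR adjusted p = 0.0596). The call at 18 to 20 nt was lost without paps1-3 16, paps1-3 26 or WT 19, and without both paps1-3 16 and WT 15 (log2 −1.23 to −1.05). The call at 21 to 22 nt was lost without paps1-3 16, paps1-3 20, paps1-3 26 or WT 19 (log2 −1.33 to −0.92), and that at 25 to 28 nt without paps1-3 26 (log2 −1.0). With miRNA-locus scaling none of the 3 was called. ATMG00570 was lower at 25 to 28 nt (log2 −1.94, SE 0.27, edgeR adjusted p = 0.000284) and not called in the shorter classes. With total reads it was also lower at 21 to 22 nt and 23 to 24 nt (log2 −0.88 and −1.53), and with the isolation as a block at 23 to 24 nt (log2 −0.64). With miRNA-locus scaling ATMG00570 was instead higher at 18 to 20 nt (log2 1.15, edgeR adjusted p = 0.0294). ATMG00730 rose at 18 to 20 nt (log2 2.81, SE 0.26, edgeR adjusted p = 0.000456) and at 23 to 24 nt (1.06, though 0.19 and not called with total reads), and not at 21 to 22 nt (0.38) or 25 to 28 nt (−0.30). ATMG00520 rose at 25 to 28 nt (log2 1.29, edgeR adjusted p = 0.0134), and lost this call without paps1-3 26 or WT 19 (log2 1.22 and 0.98). With total reads ATMG00520 was called lower at 18 to 20 nt (log2 −1.06, edgeR adjusted p = 0.042).

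**Figure D3:**
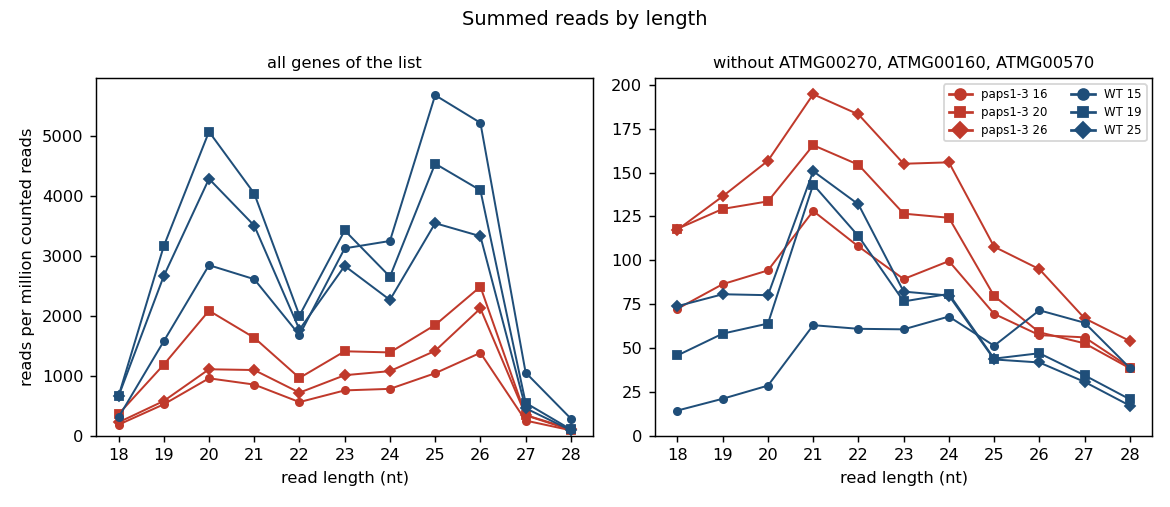
RPM at each length from 18 to 28 nt, summed over the set (left) and without ATMG00270, ATMG00160 and ATMG00570 (right), 1 line per library. On the left the WT libraries lay above the paps1-3 libraries from 19 to 27 nt. On the right the paps1-3 means were higher at every length, with overlap at 18, 21, 22 and 26 to 28 nt.

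Summed over the set, RPM were lower in paps1-3 without overlap at each length from 19 to 27 nt, with ratios of 0.310 at 19 nt to 0.474 at 26 nt (exact p = 0.1 each, adjusted to 0.122 over 11 lengths). At 18 and 28 nt the groups overlapped. All these ratios are in RPM, in which the whole sum fell more than per nuclear or TMM-scaled reads. Without ATMG00270, ATMG00160 and ATMG00570 the log2 ratio was positive at each length, 1.20 at 18 nt, 1.14 at 19 nt, 1.16 at 20 nt and 0.40 to 0.89 from 21 to 28 nt. The groups were then apart at 19, 20 and 23 to 25 nt (exact p = 0.1 each). They overlapped at 18, 21, 22 and 26 to 28 nt (exact p = 0.2 to 0.4). Reads of 18 to 20 nt made up 22.8% ± 3.42 of the set in paps1-3 and 25.5% ± 7.24 in WT, with overlap (exact p = 0.6). Without ATMG00270, ATMG00160 and ATMG00570 they made up 29.7% ± 2.19 in paps1-3 and 21.3% ± 8.67 in WT, also with overlap. Without ATMG00270 alone they made up 19.6% ± 0.962 in paps1-3 and 9.97% ± 5.85 in WT, without overlap (exact p = 0.1). In the other mitochondrial features the same share was 41.0% ± 4.28 in paps1-3 and 28.5% ± 10.4 in WT. The set stood 18.2 percentage points below them in paps1-3 and 3.05 points below in WT, without overlap (exact p = 0.1, adjusted to 0.3 over 3 comparisons of the short share). The difference between these distances, −15.1 points, rested on ATMG00270. Without that gene it was −2.83 points with overlap (exact p = 0.4), and without ATMG00270, ATMG00160 and ATMG00570 −3.96 points (exact p = 0.3).

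Within-gene length profiles do not depend on library scaling, and they were distinct. ATMG00270 had a hump at 20 nt and another at 25 and 26 nt. In all 3 paps1-3 libraries 26 nt was its commonest length, with 23.7%, 21.2% and 28.3% of its reads, whereas it was 25 nt in WT 15 and 20 nt in WT 19 and WT 25. Its ratio of 26-nt to 25-nt reads was 1.62, 1.54 and 1.82 in paps1-3 and 0.968, 0.958 and 1.0 in WT. The genotypes were thus apart in this ratio, and WT 15, otherwise unlike its fellows, lay with them. In the set without ATMG00270, ATMG00160 and ATMG00570 the ratio was 0.825, 0.740 and 0.881 in paps1-3 and 1.39, 1.07 and 0.960 in WT, the other way round. Over all counted reads it was 0.826, 0.801 and 0.825 in paps1-3 and 0.912, 0.815 and 0.828 in WT. These ratios were chosen after the profiles were seen, so they are given only as a description.

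ATMG00160 had 3 separate peaks, at 21, 23 and 25 nt, and lower shares at 22 and 24 nt than at either neighbouring length in every library. Reads of 22 nt made up 8.96% to 10.6% in paps1-3 and 9.87% to 10.3% in WT, and reads of 24 nt 5.35% to 6.14% in paps1-3 and 3.10% to 5.01% in WT. Its 25-nt to 23-nt ratio was 1.57, 0.820 and 0.960 in paps1-3 and 1.18, 0.428 and 0.370 in WT, highest in paps1-3 16 and WT 15, and the groups overlapped. ATMG00570 had 1 peak, at 23 nt in every library, with 31.9% to 35.0% of its reads in paps1-3 and 27.2% to 33.5% in WT. Its flanks differed. The ratio of 24-nt to 22-nt reads was 0.934, 0.901 and 0.965 in paps1-3 and 1.91, 1.44 and 1.56 in WT, without overlap. In the set without ATMG00270, ATMG00160 and ATMG00570 that ratio overlapped, at 0.923, 0.804 and 0.851 in paps1-3 and 1.11, 0.711 and 0.606 in WT. The mean length of ATMG00570 reads was 23.2 ± 0.0909 nt in paps1-3 and 23.7 ± 0.301 nt in WT.

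The commonest length of ATMG00730 was 22 nt in 5 libraries and 26 nt in WT 15, and its short reads set the genotypes apart. Reads of 18 to 20 nt were 19.3%, 24.5% and 23.4% of its total in paps1-3 and 2.76%, 4.78% and 5.76% in WT. Of the 16 features of the set with at least 1000 reads, 5 had a higher share of 18 to 20 nt in every paps1-3 library than in any WT library (8.19% of all features with that many reads), and 0 a lower one (2.16%). They were ATMG00070, ATMG00180, ATMG00570, ATMG00730 and ATMG01190. In all 16, WT 15 had the lowest share of 18 to 20 nt and the highest share of 25 to 28 nt among the WT libraries. Over all counted reads the share of 18 to 20 nt was also lowest in WT 15, at 27.4% against 42.9% in WT 19 and 47.0% in WT 25. The low short share of WT 15 was thus not particular to the set. The part of WT 15's longer reads in these contrasts was not tested.

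**Figure D4:**
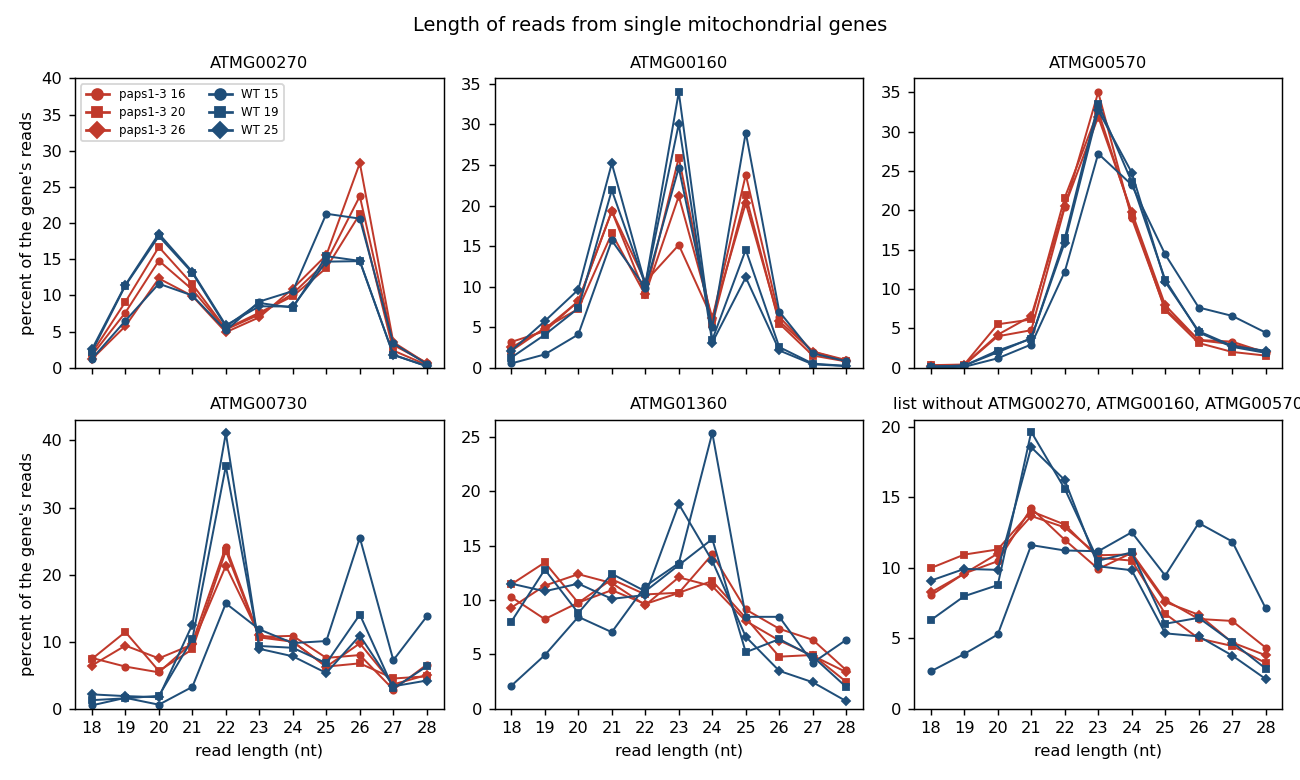
Percent of a gene's reads at each length from 18 to 28 nt, 1 line per library, for 5 genes and for the set without ATMG00270, ATMG00160 and ATMG00570. ATMG00270 had its peak at 26 nt in the 3 paps1-3 libraries, ATMG00160 showed peaks at 21, 23 and 25 nt, and ATMG00730 had 22.4% ± 2.74 of reads at 18 to 20 nt in paps1-3 and 4.43% ± 1.53 in WT.

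Nuclear twins were common. Of 33 protein-coding sequences that RefSeq annotates in the mitochondrial genome, 16 recur whole and without a mismatch on chromosome 2, between 3239693 and 3503476 in TAIR10.1, and 22 match over at least 99% of their bases. For atp4, ccmB, cox1, cox2, nad4L, nad9, rpl16 and rps3 fewer than 60% of bases matched there. In the counts, 11 of the 23 features of the set with at least 400 reads had a nuclear gene whose reads equalled theirs within limits on length and library. For ATMG00270 and AT2G07731 the log2 fold changes were −0.87 and −0.86, and for ATMG00220 and AT2G07727 (1159 and 1266 reads) 2.54 and 2.66. ATMG00900 and its partner segment had 861 and 859 reads, with changes of 1.09 and 1.01. ATMG00410 and ATMG01170 both matched AT2G07741, with changes of 3.05, 2.95 and 3.48. In these pairs mitochondrial and nuclear origin cannot be told apart. The limit also reaches genes without a twin by counts. The RefSeq sequences of cox3, atp1 and atp9 recur whole and without a mismatch on chromosome 2. ATMG00730, ATMG01190 and ATMG01080, annotated as these subunits, were not among the 11, yet reads from those sequences match both genomes.

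Nuclear genes of the same pathways were counted beside the set. RefSeq product names gave 67 nuclear genes for subunits of complexes I, III and IV, ATP synthase and the mitochondrial ribosome, of which 17 had enough reads to be tested. Of these, 12 were higher in paps1-3 and 1 lower, with a median of 1.86, against 1371 higher and 229 lower of 5496 nuclear protein-coding genes with a median of 0.31. By complex, 6 of 7 tested genes of ATP synthase, 4 of 5 of complex I, 2 of 2 of complex III and 0 of 3 of complex IV were higher. Differences between complexes were not tested. AT5G08670, AT5G08680 and AT5G08690 of ATP synthase have the same product name, as do AT5G13430 and AT5G13440, the tested genes of complex III. Whether such genes share reads was not tested. The ATP synthase genes included AT3G52300 (D chain) at 2.38, AT5G13450 (delta) at 2.38, AT5G08690 (alpha/beta family) at 2.32 and AT2G33040 (gamma) at 2.06, and the one not called was AT2G38580 (D chain-related) at −0.21. The one lower gene was AT1G32710, of the subunit VIb family of cytochrome c oxidase, at −3.78 on under 1 CPM in WT. With total-read scaling the list had 9 higher and 3 lower and a median of 1.03, against 534 higher and 1345 lower nuclear protein-coding genes and a median of −0.48. The 3 lower were the complex IV genes.

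Of the 99 other mitochondrial features 41 were tested, of which 29 were higher and 0 lower in edgeR (also 0 at an unadjusted p under 0.05 and with DESeq2), with a median of 2.75, beside 14.3% higher and 4% lower of all features. With total reads 27 were higher and 3 lower, beside 6.02% and 40.3% of all features, with a median of 1.93. Of 121 tested chloroplast features edgeR called 10 higher and 0 lower (2 at an unadjusted p under 0.05, 0 with DESeq2), with a median of 0.0042. With total reads 3 were higher and 55 lower, with a median of −0.81. Differences between these lists and the set were not tested.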

How the data were processed

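The authors deposited raw counts of reads per annotated segment, in 1 column per read length (18 to 28 nt). The submitters' processing notes name TAIR10 as the build and, with no versions, Trimmomatic, BWA, bedtools and SAMtools. Libraries were made with a TruSeq small RNA kit for inserts of about 19 to 25 bases, per the labels' protocols, so counts of 18 nt and of 26 to 28 nt lay outside the selected range. The treatment of strand and of reads with several matching places was not found in those sources, and it bears on every gene with a nuclear copy.

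Counts were summed per ID. Changes were tested with edgeR 4.0.16 (R 4.3.3; robust quasi-likelihood, TMM, filterByExpr, no block, Benjamini-Hochberg at 0.05 over the whole table) over all lengths and in 4 length classes, each scaled on its own, and sums with exact two-sided permutation tests over 20 assignments. CPM are reads per 1000000 TMM-scaled reads, and RPM use counted reads instead. SE is the absolute log2 fold change over the root of F. DESeq2 1.42.0 was an alternative.

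Genes were placed into groups by hand from their standard names. RefSeq notes on nuclear copies name 17 IDs, and the others appear by ID with their group. Members and lists were chosen with earlier results of these data known. Values per library are given for the gene of each group with the highest mean CPM and those with the largest and smallest change, and for every tested gene not called higher. ATMG00210, lengths compared within a gene, and other genes given by fold change alone were chosen after their values were seen. A nuclear twin had 0.8 to 1.25 times the reads, with a chi-square per degree of freedom up to 1.3 over 66 library and length cells, limits also set after the values were seen. Copies were matched with BLAST+ 2.17.0 to TAIR10.1 chromosome 2, a build other than the files' for the mitochondrion.

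Libraries with adjacent numbers deviated together (r 0.43 for 16 and 15, 0.26 for 20 and 19, 0.25 for 26 and 25, other pairs −0.32 to 0.13), and the labels' protocols state paired isolations without numbering them. These pairs were taken as the isolations. Tested on simulated data over 13464 features, the edgeR fit called 21% of genes changed 2-fold and 96% of those changed 4-fold, and 7.14% of its calls were false. The 200 changed features each had a mean of at least 20 reads per library, and as many were raised as lowered.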

Additional observations from a re-analysis of the deposited data

How the results depend on the processing

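Against 27 higher calls over all lengths, fits that left out 1 library or both paps1-3 16 and WT 15 made 26 to 30, with 26 or 27 of the 27 kept and 0 lower in each. Lower calls numbered 1 with DESeq2, 2 with total reads and 2 with the replicate block. By length class, leaving out libraries gave 0 to 1 lower at 18 to 20 nt, 0 to 1 at 21 to 22 nt, 0 to 1 at 23 to 24 nt and 1 to 2 at 25 to 28 nt. Total reads gave 2 lower at 18 to 20, 21 to 22 and 23 to 24 nt, miRNA-locus scaling 0, 0 and, at 25 to 28 nt, 1, no count filter 0 at 21 to 22 nt and 2 at 23 to 24 nt, the stricter filter 0 at 21 to 22 nt, and the replicate block 2 at 23 to 24 nt. With total reads the log2 change of genes not called turned to −0.65 (ATMG00160), −0.21 (ATMG00290), −0.15 (ATMG00520), −0.43 (ATMG00580), −0.050 (ATMG00730) and −0.44 (ATMG00830). The block changed the calls of ATMG00270, ATMG00570, ATMG00520 and ATMG00730 and no other of the genes given per library; its sign-flip tests of sums cannot go below 0.25.

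Sums depended on single genes by construction. Without ATMG00270 the log2 ratio of complex I was 0.40, its share difference 8.35 points and that of matR and mttB −23.7 points, the short-share difference 9.62 points, and the log2 ratios 0.93, 0.48 and 0.23 at 18, 19 and 20 nt. Without ATMG00270, ATMG00160 and ATMG00570 (added after seeing the data) the log2 ratio of the whole sum was 0.75, complex I 0.40 and complex IV 0.82, the share difference of cytochrome c maturation −0.84 points, the short-share difference 8.49 points, and the log2 ratios from 18 to 28 nt were 1.20, 1.14, 1.16, 0.45, 0.54, 0.76, 0.73, 0.89, 0.40, 0.44 and 0.78. Per nuclear reads or TMM size, complex IV was 0.39 and 0.42 and 28 nt 0.098 and 0.036. Leaving out libraries, the share difference of matR and mttB ran from −1.60 to 1.24 points (0.037 without paps1-3 20, 1.24 without WT 15, 0.63 without both paps1-3 16 and WT 15), the log2 ratio at 28 nt from −0.96 to 0.093, and the short share minus that of nuclear genes from −0.074 to 2.40 points; the cause was not tested. Depth limits the features of few reads, of which 3 were not tested. In simulation over all lengths 21% of 2-fold changes were called. Those changes lay only in features with a mean of at least 20 reads, so the simulation does not cover features of fewer reads.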
